A study of Saccharomyces cerevisiae with 18 samples.

Results

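The genes described here are 9 transporters and reductases that carry iron, copper and manganese in budding yeast (Saccharomyces cerevisiae): CCC1, FET3, FTR1, FET4, FRE1, FTH1, SMF1, SMF3 and CTR1. They are 9 of the 6606 open reading frames (ORFs) in the deposited table and were selected by name. The selection also rested on a measured value, since CCC1 was taken up because its level was high in the yal031c strain. Differences that involve yal031c, and every difference of CCC1, are therefore given as descriptions with no test. Poly-A RNA was sequenced from 4 heterozygous diploid strains, labelled yal031c, yal067c, yal022c and yal008w, with 3 libraries each, and from wild-type, with 6 libraries. The ORFs that these labels name lie on chromosome I and encode GIP4 (YAL031C), SEO1 (YAL067C), FUN26 (YAL022C) and FUN14 (YAL008W), so 1 of the 2 copies is affected in each strain. All groups grew in YPD, a rich glucose medium, at 30 °C to log phase without the drug G418. BY4741, which is a haploid of mating type a, is the background in every label, whereas the series record calls the wild-type diploid and the deposited wild-type columns carry the name BY4743, a diploid. Whether replicates were separate cultures is not stated, so a p-value reflects only how far these libraries scatter, and that scatter may be technical.

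Yeast takes up iron at the plasma membrane by a reductive route: surface reductases such as Fre1 reduce ferric iron, the multicopper oxidase Fet3 oxidises the ferrous form, and the permease Ftr1 carries it in. Fet3 needs copper, which enters through Ctr1, so the copper and iron routes are linked. Surplus iron and manganese are moved into the vacuole by Ccc1, and Fth1 and Smf3 return iron from the vacuole to the cytosol. The transcription factor Aft1 activates the uptake genes when iron is scarce, Mac1 activates copper uptake genes when copper is scarce, and Yap5 acts when iron is high.

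The deposited values cover the last 200 bases of each ORF, so levels of different genes refer to windows of equal length. The window of CCC1 is shown because every CCC1 value below comes from it. It is the reference sequence of the RefSeq assembly R64, chrXII:577594-577793, plus strand, with the stop codon in capitals.
CCC1: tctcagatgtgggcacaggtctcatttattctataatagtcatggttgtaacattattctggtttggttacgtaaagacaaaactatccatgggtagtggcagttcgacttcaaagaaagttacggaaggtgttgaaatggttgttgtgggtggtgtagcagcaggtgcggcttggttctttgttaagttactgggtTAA
In all 9 members, each stretch of 25 bases in this window occurred once in R64, and 0 other ORFs overlapped it.

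Sequence before the coding region was searched on both strands, from 250 bases before to 50 bases from the start codon on, in R64 and placed by R64's own annotation. The Aft1 core GCACCC occurred in the windows of 4 of the 9 members, FET3, FTR1, FET4 and FTH1, while 4.25% of all 6026 such windows held it. The sites are shown in the direction of the gene with 10 flanking bases where the window allows, and capitals mark the match, which lies on the opposite strand in FTH1.
FET3, chrXIII:388572-388587: GCACCCatttgcaggt
FTR1, chrV:461899-461924: gtagatgaatGCACCCgatttctaag
FET4, chrXIII:914735-914760: cttcttaattGCACCCattagtttag
FTH1, chrII:634958-634983: gttcaaaaatGGGTGCggtgcggccg
FET3 and FTH1 are read from the plus strand of R64, and FTR1 and FET4 from the minus strand. The longer form TGCACCC, which contains the core, occurred in FTR1 and FET4 and in 1.29% of windows. The Mac1 motif TTTGCTC occurred in FTR1 and FRE1, and within the coding part of FET3, and 5.41% of windows held it. The 2 Mac1 matches before the start codon are shown in the same way, with the FTR1 match on the opposite strand.
FRE1, chrXII:568461-568487: tttgaagtcgTTTGCTCtcttccatgc
FTR1, chrV:461805-461831: tgctcaatgtGAGCAAAaaaatacata
The Yap5 motif TTACTAA occurred in FRE1 and CTR1, against 7.52% of windows. The Rox1 motif ATTGTT, held by 35.2% of windows, and the Zap1 motif, held by 0.083%, had 0 matches in the members. Within these windows CCC1, SMF1 and SMF3 had 0 matches to any motif searched. Sequence further than 250 bases before the start codon was not searched, so sites there are not excluded for any member. These matches describe letters in a fixed window and were not measured as binding sites.

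Total counts per library ran from 52293.5 to 132618, and 1 count was worth 7.60 to 21.7 CPM (counts per 1e+06 counts of the scaled library), so weakly expressed members rest on few counts. Replicates 1 and 2 of wild-type differed by less than counting noise: chi-square per ORF was 0.970, where the 14 other wild-type pairs gave 2.08 to 9.85. They were counted as 1 sample, which leaves 17 libraries and n = 5 for wild-type. Of the replaced genes, GIP4 averaged 9.79 ± 9.02 CPM in yal031c and 57.0 ± 22.7 CPM in wild-type, FUN26 averaged 136 ± 65.0 CPM in yal022c and 269 ± 117 CPM in wild-type, and FUN14 averaged 164 ± 28.7 CPM in yal008w and 309 ± 51.2 CPM in wild-type (SD). SEO1 had 0 counts in yal067c and 3.5 counts in wild-type. Summed levels of 6 genes that mark a cells ran from 16.0 to 174 CPM in the strains and from 955 to 1617 CPM in wild-type. The 11 genes that mark haploid cells summed to 34.8 to 261 CPM in the strains, where HO had 0 counts, and to 1095 to 1633 CPM in wild-type. The 4 alpha-cell genes summed to 0 to 118 CPM in the strains and 33.3 to 174 CPM in wild-type. All 6 a-cell genes and all 11 haploid genes had lower means in the strains, and a/alpha diploids are known to keep these genes off, so the libraries labelled wild-type went against the diploid record. Every difference from wild-type below also sets these libraries against each other, and ploidy or mating type and the replaced gene cannot be told apart in it.

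Counts over all 18 libraries came to 425 for CTR1 (YPR124W), 384.5 for FTR1 (YER145C), 215.5 for CCC1 (YLR220W) and 154.5 for FET3 (YMR058W), which were 4 of the 2856 ORFs that passed the filter on low counts. The other 5 members did not pass it, with 91.5 counts for FET4 (YMR319C), 72 for SMF1 (YOL122C), 57 for SMF3 (YLR034C), 39 for FRE1 (YLR214W) and 32 for FTH1 (YBR207W). By mean CPM, CTR1 and FTR1 ranked above 81.2% and 80.7% of all ORFs, CCC1 above 69.9% and FET3 above 64.3%. The other members ranked lower, above 51.9% of ORFs for FET4 and above 25.1% for FTH1. In the deposited table FTR1, FET4, SMF1 and SMF3 lie on the minus strand and the other 5 members on the plus strand, and the counted windows are coding sequence. In bulk RNA, less RNA per cell and fewer cells that express a gene cannot be told apart.

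CCC1, the vacuolar importer of iron and manganese (chromosome 12, 576827 to 577795, plus strand in the deposited table), had its highest levels in yal031c. It stood at 271, 267 and 200 CPM in the yal031c libraries, from 30.5, 23 and 11.5 counts. In yal067c it stood at 154, 64.0 and 45.6 CPM, in yal022c at 128, 124 and 87.0 CPM, and in yal008w at 31.9, 59.6 and 51.8 CPM. The wild-type libraries had 196 CPM in replicates 1 and 2 averaged, 49.0 in replicate 3, 156 in replicate 4, 189 in replicate 5 and 189 in replicate 6. All 3 yal031c libraries were thus above the 9 libraries of the other strains and above wild-type, but the lowest of them exceeded the highest wild-type library, 200 against 196 CPM, by less than the 17.4 CPM that 1 count was worth there. Among all 2856 tested ORFs, 1.33% had the yal031c libraries above all 9 of the other strains and 1.47% above all wild-type libraries. CCC1 was selected by this ordering, so nothing is read from these shares.

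CCC1 averaged 246 ± 39.8 CPM in yal031c, 87.9 ± 58.1 in yal067c, 113 ± 22.7 in yal022c, 47.7 ± 14.3 in yal008w and 156 ± 61.6 in wild-type (SD, n = 3 per strain and 5 for wild-type). From high to low the order was yal031c, wild-type, yal022c, yal067c and yal008w, and below yal031c the libraries of each group overlapped those of the next. In the edgeR fit over all groups, CCC1 in yal031c differed by 1.66 ± 0.37 (SE) from the mean fitted log2 level of the other strains. This is 3.17-fold their geometric mean, whereas their plain mean over libraries was 82.9 CPM. Against wild-type the log2 difference of yal031c was 0.63 ± 0.40. The other strains had log2 differences from wild-type of −0.89 ± 0.45 in yal067c, −0.46 ± 0.44 in yal022c and −1.75 ± 0.50 in yal008w. Without wild-type replicate 3, whose CCC1 level was the lowest of its group, the difference of yal031c from wild-type was 0.42, and without yal067c replicate 1 the difference of yal067c was −1.56. These comparisons share the wild-type libraries, and those of the strains share each other's.

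**Figure D1:**
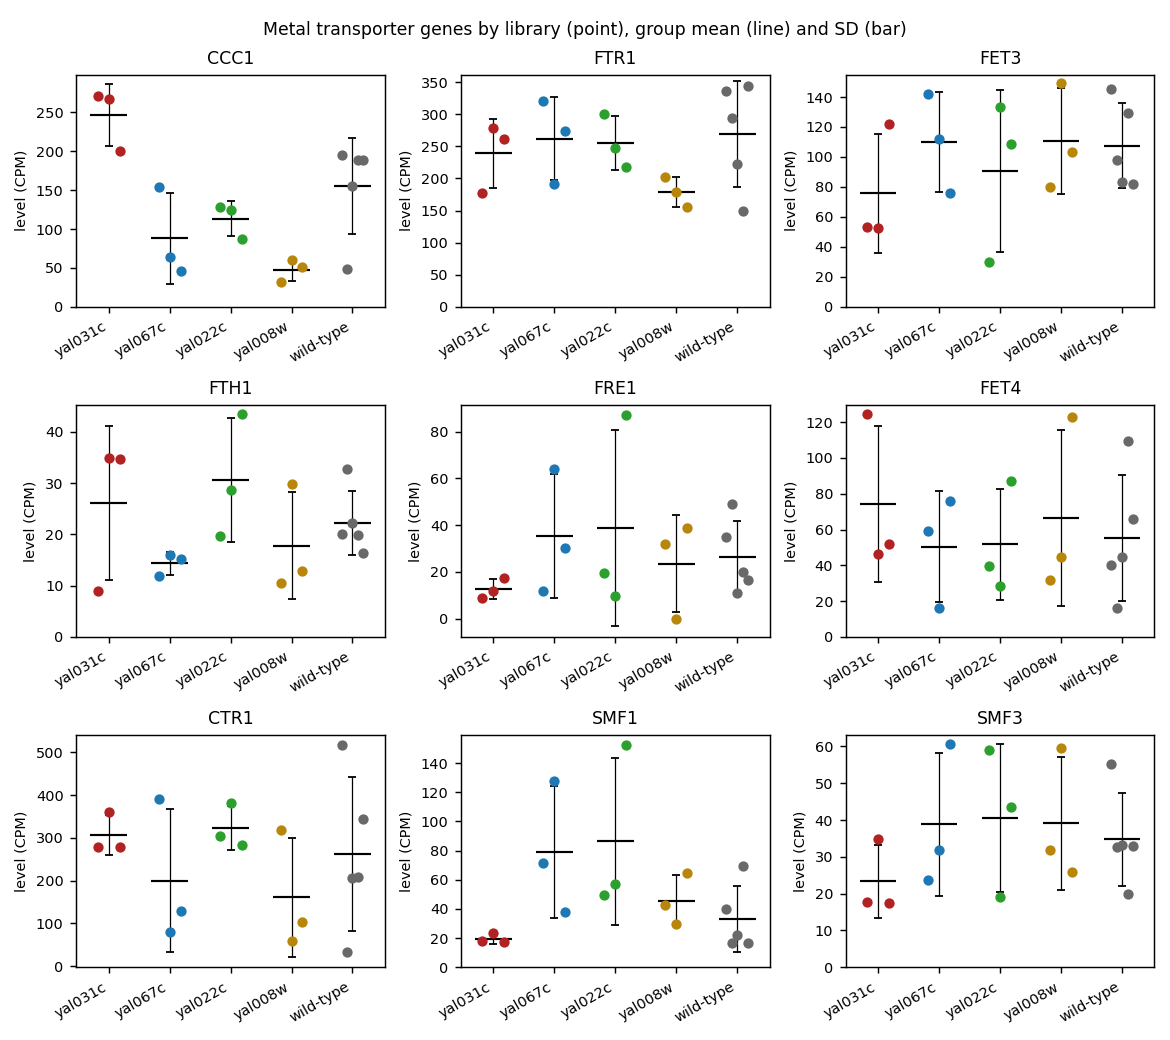
Level of each of the 9 genes in CPM (vertical axes, each starting near 0) in the 17 libraries, grouped as yal031c, yal067c, yal022c, yal008w and wild-type, with 1 point per library, a line for the group mean and a bar for 1 SD. CCC1 libraries of yal031c, at 200 to 271 CPM, lie above all others, whereas CTR1 splits within yal067c, yal008w and wild-type and the other genes overlap between most groups.

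The CCC1 level also followed a difference between libraries that was wide within yal067c and wild-type. It did not cut across every group, since all yal031c scores below are negative and all yal008w scores positive. The first principal component of log2 CPM, computed over the tested ORFs without the members, held 44.8% of the variance, and its score is called the library axis here. Over the 17 libraries, log2 CPM of CCC1 had a Pearson correlation of −0.90 and a Spearman correlation of −0.82 with that score, and 4.55% of tested ORFs had a larger absolute Pearson value. The 17 include the yal031c libraries on which CCC1 was selected, so nothing is read from this share. The scores were −32.2, −25.1 and −3.68 in yal031c, −24.0, 27.8 and 21.7 in yal067c, −9.61, −6.64 and 15.7 in yal022c and 13.6, 28.7 and 22.2 in yal008w. In wild-type they were −23.6 in replicates 1 and 2 averaged, 38.7 in replicate 3, −3.40 in replicate 4, −19.5 in replicate 5 and −20.5 in replicate 6. Replicates 1 and 2 of yal031c had the lowest scores of all libraries, whereas replicate 3 had the median score, and the yal008w libraries were among the 7 with the highest scores.

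Replicate 2 of yal031c, with 267 CPM of CCC1 at a score of −25.1, lay near yal067c replicate 1, with 154 CPM at −24.0, and wild-type replicates 1 and 2 averaged, with 196 CPM at −23.6. Replicate 3 of yal031c, with 200 CPM, lay near wild-type replicate 4, with 156 CPM at −3.40. No library of another group lay as low on the axis as replicate 1 of yal031c. Since CCC1 was selected for yal031c lying above the other libraries, nothing is read from the order of these values. Depth differed between these libraries, and the part of the axis in the level of CCC1 was not tested.

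**Figure D2:**
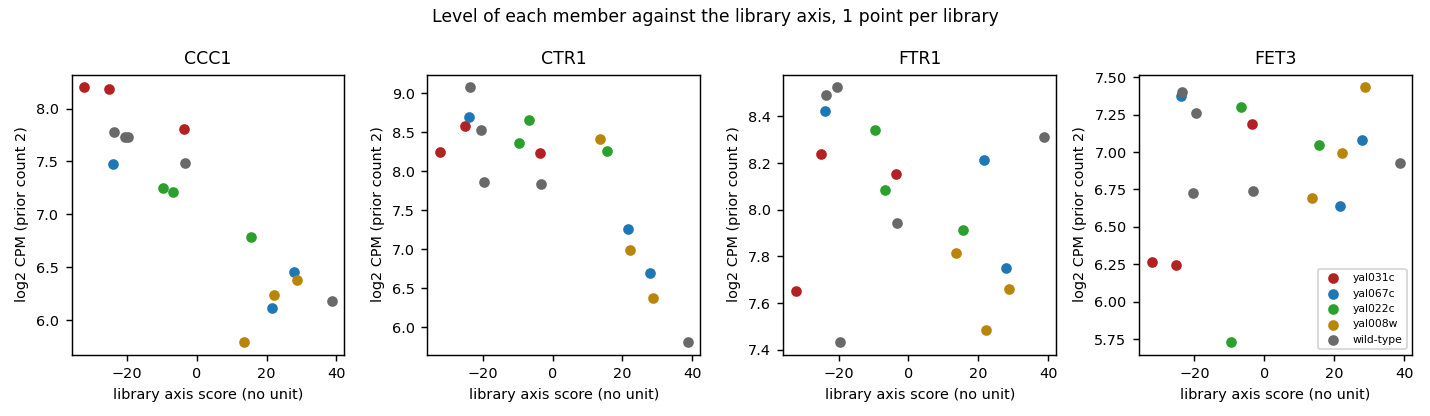
Log2 CPM (prior count 2, vertical axes) of the 4 members that passed the count filter against the library axis score (horizontal axes, no unit), with 1 point per library coloured by group. CCC1 and CTR1 decline along the axis with Pearson correlations of −0.90 and −0.83, while FTR1 and FET3, at −0.28 and 0.21, scatter.

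For the permease and the oxidase of high-affinity iron uptake, every strain overlapped wild-type. FTR1, the permease (chromosome 5, 460521 to 461735), stood at 178, 279 and 261 CPM in yal031c, 320, 192 and 273 in yal067c, 301, 248 and 217 in yal022c and 202, 179 and 155 in yal008w. Its wild-type libraries had 336, 294, 222, 149 and 345 CPM, a range that covered every strain library. Among the strains, all yal008w libraries lay below all yal022c libraries, at 155 to 202 against 217 to 301 CPM. This difference was not tested, and the share of all ORFs that separate these strains was not counted, so nothing is read from it. The lowest mean, 179 ± 23.2 CPM in yal008w against 269 ± 82.7 CPM in wild-type, gave a log2 difference of −0.58 ± 0.33 (SE) with a 95% interval of −1.27 to 0.11 and an edgeR adjusted p of 0.392. In yal067c and yal022c the log2 differences were −0.02 ± 0.32 and −0.06 ± 0.32, with edgeR adjusted p of 0.996 and 0.991.

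FET3, the multicopper oxidase that pairs with Ftr1 (chromosome 13, 388821 to 390731), had 53.3, 52.3 and 122 CPM in yal031c, 142, 112 and 76.0 in yal067c, 29.6, 134 and 109 in yal022c and 79.6, 149 and 104 in yal008w. In wild-type it had 145, 98.0, 83.3, 129 and 82.1 CPM, so the groups overlapped. Log2 differences from wild-type were −0.02 ± 0.44 in yal067c, −0.30 ± 0.47 in yal022c and 0.02 ± 0.47 in yal008w, with edgeR adjusted p of 0.998, 0.980 and 0.991. Together the intervals of these values reach from −1.29 in yal022c to 0.99 in yal008w. Differences inside the interval of each strain were not excluded, and the smallest difference that could be detected was not determined. As a description, the log2 difference of yal031c from wild-type was −0.64 ± 0.49 for FET3 and −0.18 ± 0.32 for FTR1. Over the 17 libraries the Pearson correlation of FET3 with FTR1 was −0.14.

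FTH1, the vacuolar relative of FTR1 that exports iron with Fet5 (chromosome 2, 635141 to 636538), was the weakest member, with 1 to 3 counts in every library. Its mean was 26.2 ± 15.0 CPM in yal031c, 14.3 ± 2.19 in yal067c, 30.6 ± 12.0 in yal022c, 17.8 ± 10.5 in yal008w and 22.3 ± 6.18 in wild-type. The log2 CPM difference of yal067c from wild-type, −0.26, gave an exact two-sided permutation p of 0.0536, above the smallest of 0.0179 that 3 against 5 libraries allow. The 3 yal067c libraries, at 11.9 to 16.0 CPM, lay just below the wild-type range of 16.4 to 32.7 CPM, a gap smaller than 1 count. The share of all ORFs with such a gap was not counted. Without wild-type replicate 6, the lowest of its group, the exact p of the yal067c difference was 0.0286. Without yal008w replicate 2, the highest of its group, that of the yal008w difference, −0.36, was 0.0476. Both are the smallest values that these splits allow. Under each of 16 alternatives, 0 to 1 of the exact tests were under 0.05, so nothing is read from these values.

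FRE1, the surface reductase of ferric iron and cupric copper (chromosome 12, 568569 to 570629), had 1 count in each yal031c library, or 8.88, 11.6 and 17.4 CPM. It had 11.9, 64.0 and 30.4 CPM in yal067c, 19.7, 9.55 and 87.0 in yal022c, 31.9, 0 and 38.8 in yal008w, and 35.1, 49.0, 11.1, 19.9 and 16.4 in wild-type. The 0 in yal008w replicate 2 allows up to 44.7 CPM, the value of 3 counts there, for counting error only. FET4, the low-affinity iron transporter of the plasma membrane (chromosome 13, 912878 to 914536), had 124, 46.5 and 52.2 CPM in yal031c and 40.1, 16.3, 44.4, 109 and 65.7 CPM in wild-type. Its means in yal067c, yal022c and yal008w were 50.4 ± 31.0, 51.7 ± 31.0 and 66.5 ± 49.3 CPM, against 55.2 ± 35.0 CPM in wild-type. For FRE1 and FET4 the groups overlapped, and the exact permutation p values of the 3 tested strains ran from 0.607 to 0.929.

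CTR1, the high-affinity copper importer of the plasma membrane (chromosome 16, 786204 to 787424), was the most abundant member by total counts and, of the 4 members past the filter, had the widest range within a group. It stood at 280, 360 and 278 CPM in yal031c and 306, 382 and 283 CPM in yal022c, where the highest library was 1.29-fold and 1.35-fold the lowest. In yal067c, by contrast, it stood at 391, 79.9 and 129 CPM, in yal008w at 319, 59.6 and 104 CPM, and in wild-type at 516, 32.7, 206, 209 and 345 CPM. The highest wild-type library was thus 15.8-fold the lowest. Log2 differences from wild-type were −0.40 ± 0.59 in yal067c, 0.29 ± 0.57 in yal022c and −0.67 ± 0.61 in yal008w, with edgeR adjusted p of 0.994, 0.980 and 0.602. Leaving out yal067c replicate 1 moved the first of these to −1.25, and leaving out yal008w replicate 1 moved the last to −1.65, with edgeR adjusted p of 0.336 and 0.325.

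The low CTR1 libraries were those with the highest scores on the library axis. In the 5 libraries with scores of 21.7 to 38.7, namely yal067c replicates 2 and 3, yal008w replicates 2 and 3 and wild-type replicate 3, CTR1 ran from 32.7 to 129 CPM, and in the other 12 libraries it ran from 206 to 516 CPM. CCC1 in the same 5 libraries ran from 45.6 to 64.0 CPM, against 31.9 to 271 CPM in the other 12. The next scores, 15.7 in yal022c replicate 3 and 13.6 in yal008w replicate 1, went with 283 and 319 CPM of CTR1. The share of all ORFs that this cut separates was not counted, so nothing is read from the cut. The Pearson correlation of CTR1 with the axis was −0.83 (Spearman −0.79), and 13.1% of tested ORFs had a larger absolute value. CTR1 and CCC1 correlated at 0.64 with each other, whereas the Pearson correlations of FET3 with the other 3 tested members were −0.15 with CCC1, −0.14 with FTR1 and −0.15 with CTR1. These are descriptions over 17 libraries that share the axis.

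SMF1 and SMF3 belong to the Nramp family of metal transporters, SMF1 at the cell surface for manganese and SMF3 at the vacuole for iron. SMF1 (chromosome 15, 89692 to 91419) had 17.8, 23.2 and 17.4 CPM in yal031c, from 2, 2 and 1 counts. It had 71.1, 128 and 38.0 CPM in yal067c, 49.3, 57.3 and 152 in yal022c and 42.5, 29.8 and 64.7 in yal008w, from 2 to 8 counts a library. The wild-type libraries had 40.1, 16.3, 22.2, 69.7 and 16.4 CPM. The yal031c libraries lay below all 9 of the other strains but inside the wild-type range. With 5 counts in all, this ordering is a description only, and the share of all ORFs that have it was not counted. Against wild-type the log2 CPM difference was 0.84 in yal067c, 0.92 in yal022c and 0.34 in yal008w, with exact permutation p of 0.0893, 0.0893 and 0.375. Without wild-type replicate 5, the highest of its group, the yal022c value was 1.16, with an exact permutation p of 0.0286. That is the smallest value that this split allows. Under each of 16 alternatives, 0 to 1 of the exact tests were under 0.05, so nothing is read from it. SMF3 (chromosome 12, 210513 to 211934) had 17.8, 34.9 and 17.4 CPM in yal031c, 23.7, 32.0 and 60.8 in yal067c, 59.1, 19.1 and 43.5 in yal022c, 31.9, 59.6 and 25.9 in yal008w and 55.1, 32.7, 33.3, 19.9 and 32.8 in wild-type. Its groups overlapped, with exact permutation p from 0.679 to 0.786.

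The 3 members that passed the filter and did not set the selection, FTR1, FET3 and CTR1, gave 0 calls in yal067c, yal022c, yal008w or the mean of these strains against wild-type at an edgeR adjusted p under 0.05. They also gave 0 at an unadjusted p under 0.05 and 0 by DESeq2. Of all 2856 tested ORFs, 0.14% were called in yal067c, 0.21% in yal022c, 0.315% in yal008w and 0.385% in the mean of the 3 strains. At the unadjusted p the shares were 3.92%, 4.34%, 16.7% and 11.9% in the same order. In the comparisons that include yal031c, 0.28% of ORFs were called against wild-type and 0% against the other strains. Beside such shares, 0 calls among 3 genes is not a result about these genes. The 15 exact tests of the weaker members gave 0 values under 0.05, and edgeR without the count filter gave them adjusted p from 0.858 to 1.00 over 6413 ORFs.

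**Figure D3:**
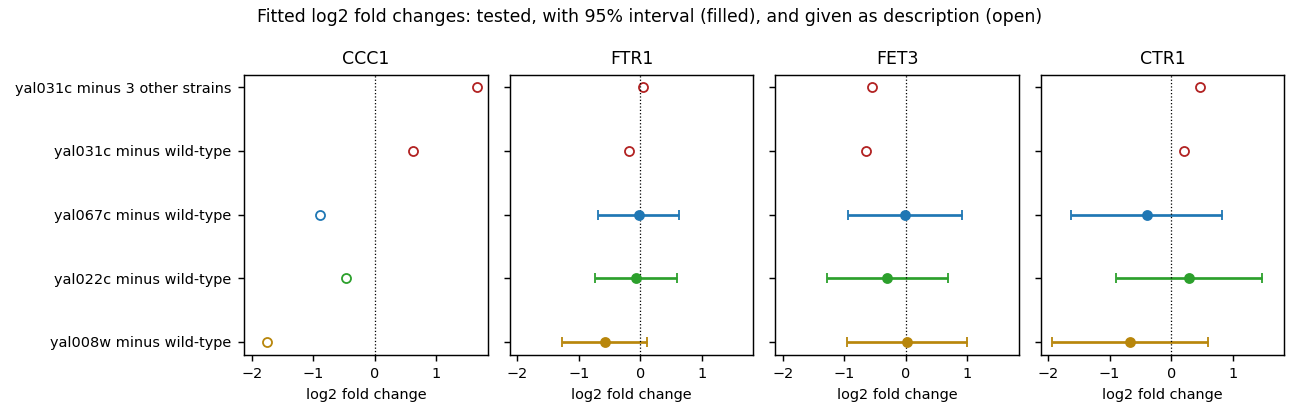
Fitted log2 fold changes (horizontal axes) of the 4 members that passed the count filter, in yal031c against the mean of the 3 other strains and in each strain against wild-type. Filled points with bars are the tested differences with their 95% intervals, all of which include 0, and open points without bars are differences given as descriptions, which run from −1.75 for CCC1 in yal008w against wild-type to 1.66 for CCC1 in yal031c against the other strains.

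The tested ORFs most like CCC1 over the 17 libraries, by Pearson correlation of log2 CPM, were YKR018C at 0.95, DLD2 at 0.94, GVP36 at 0.93, LOT6 at 0.93 and YJR084W at 0.93. DLD2 encodes a D-2-hydroxyglutarate dehydrogenase, GVP36 a Golgi vesicle protein and LOT6 a quinone reductase. Each of these also followed the library axis, with correlations from −0.88 to −0.94. Those most like FTR1 were RFU1 at 0.79, SRP40 at 0.73 and RIO2 at 0.72, and their correlations with the axis were −0.38, −0.01 and −0.22. RFU1 encodes an inhibitor of the ubiquitin hydrolase Doa4, SRP40 a serine-rich nucleolar protein and RIO2 a kinase of ribosome assembly. The likeness is a description.

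Other genes of metal handling were taken from 5 lists with 71 genes in all, 33 of which passed the count filter. At an edgeR adjusted p under 0.05, 0 of the 33 were called in yal067c, yal022c, yal008w or the mean of these strains against wild-type. At an unadjusted p under 0.05 there were 0 in yal067c and 0 in yal022c, 8 in yal008w and 3 in the mean of the strains, all lower than in wild-type. The 8 are 24.2% of the list genes tested and the 3 are 9.09%, beside 11.9% and 7.39% of all tested ORFs that were lower at this p in the same comparisons. DESeq2 called 1, FIT3 in yal008w, for which the edgeR adjusted p was 0.149.

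The 8 were FIT3, a cell-wall mannoprotein that retains siderophore iron, AFT1, the activator of the iron regulon, BOL2, which with glutaredoxins restrains Aft1, COX17, a copper chaperone of the mitochondrion, TRE1, which takes part in the turnover of Smf1, MTM1, a mitochondrial carrier, ARH1, the ferredoxin reductase of iron-sulfur assembly, and ISA1, an assembly factor. They are named here after their values were seen, apart from AFT1 and BOL2. FIT3 had 0, 0 and 25.9 CPM in yal008w, from 0, 0 and 2 counts, against 343, 32.7, 66.7, 249 and 230 CPM in wild-type. For counting error only, the 0 values allow up to 31.9 and 44.7 CPM, the value of 3 counts in those libraries. FIT3 also had 470, 302 and 52.2 CPM in yal031c, 314, 32.0 and 38.0 CPM in yal067c and 237, 124 and 21.7 CPM in yal022c, so libraries of the same group differed widely. AFT1 had 21.2, 29.8 and 12.9 CPM in yal008w, from 2, 2 and 1 counts, against 464, 16.3, 55.5, 129 and 148 CPM in wild-type. Its log2 difference was −2.91, with an edgeR adjusted p of 0.202. The correlations of the 8 genes with the library axis ran from −0.93 to −0.43 with a median of −0.87, and those of the other 25 tested list genes ran from −0.94 to 0.71 with a median of −0.37. The part of the axis in the yal008w values was not tested.

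In the iron uptake regulon beyond the members, 6 of 22 genes passed the filter, with a median log2 difference from wild-type of 0.03 in yal067c, 0.02 in yal022c and −0.06 in yal008w. Over all tested ORFs these medians were 0.01, −0.05 and −0.03. Its most abundant genes were ATX1, the copper chaperone that serves Fet3, and ISU2, a scaffold of iron-sulfur clusters. ATX1 averaged 697 ± 116 CPM in yal008w and 542 ± 150 CPM in wild-type (edgeR adjusted p = 0.494), and ISU2 averaged 345 ± 28.1 and 391 ± 134 CPM in the same groups (edgeR adjusted p = 0.821). Among iron and copper regulators, 5 of 11 passed, with medians of 0.25, 0.21 and −0.37 in yal067c, yal022c and yal008w. BOL2 was the most abundant of them and averaged 59.9 ± 17.6 CPM in yal008w, against 216 ± 148 CPM in wild-type (edgeR adjusted p = 0.297).

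Of the copper handling genes 5 of 11 passed, with medians of 0.03, −0.46 and −0.14 in yal067c, yal022c and yal008w, led by SOD1, the cytosolic copper-zinc superoxide dismutase. SOD1 averaged 1763 ± 48.8 CPM in yal008w and 1629 ± 607 CPM in wild-type, and with 2468 counts over 17 libraries it lay near the ceiling of the counts, which compresses differences. Of the manganese and zinc handling genes 9 of 16 passed, with medians of −0.10, −0.12 and −0.19. PHO84, a phosphate transporter that also admits manganese, averaged 991 ± 160 CPM in yal008w and 771 ± 281 CPM in wild-type, and SOD2, the mitochondrial manganese superoxide dismutase, averaged 480 ± 122 and 487 ± 156 CPM. Of the genes for mitochondrial iron and iron-sulfur assembly 11 of 17 passed, with medians of −0.25, −0.09 and −0.37, and ISU1, a second scaffold, averaged 272 ± 99.7 CPM in yal008w and 314 ± 156 CPM in wild-type. In yal031c the 33 genes had a median log2 difference of 0.31 from the other strains and 0.24 from wild-type, beside −0.01 and 0.03 over all tested ORFs, which is given as a description because the choice of members used these comparisons. The mean score on the library axis was −20.4 in yal031c, −5.68 in wild-type, 8.51 in yal067c, −0.20 in yal022c and 21.5 in yal008w. The part of the axis in these medians was not tested.

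**Figure D4:**
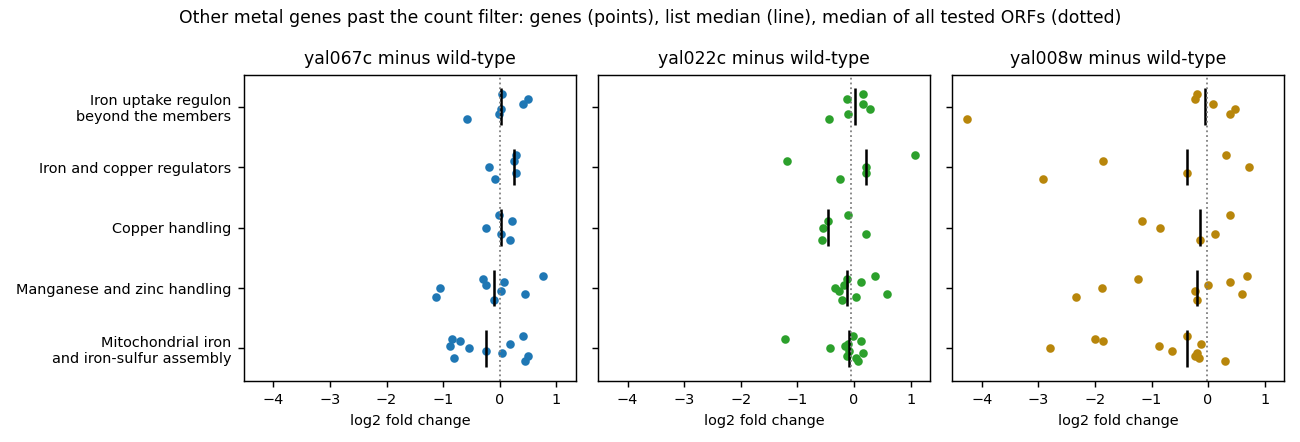
Log2 fold changes (horizontal axes) of the other metal genes that passed the count filter, in yal067c, yal022c and yal008w against wild-type, with 1 point per gene, a line for each list's median and a dotted line for the median of all tested ORFs. List medians lie between −0.46 and 0.25, and the lowest point, at −4.26, is FIT3 in yal008w, which rests on 0, 0 and 2 counts there.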

How the data were processed

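The estimated counts that the authors deposited, for 6606 ORFs in 18 libraries, were 93.0% whole and otherwise multiples of 0.5. Per the table's name, each covers the final 200 bases of an ORF. No value exceeded 201, so strong genes are compressed. Bowtie 0.12.5 is named in the submitters' processing notes; the sources used here do not state the build, the annotation or the use of strand. Coordinates are those of the table unless R64 is named. RefSeq R64 paired 5918 ORFs with a symbol or locus.

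Wild-type replicates 1 and 2 were averaged after a chi-square test over ORFs with mean counts of 8 to 120; the other 14 wild-type pairs gave 2.08 to 9.85 per ORF. Estimated counts were rounded and tested in edgeR 4.0.16 (R 4.3.3): TMM scaling, filterByExpr (minimum count 10) and quasi-likelihood tests on group means, all groups in 1 fit, Benjamini-Hochberg adjusted over 2856 ORFs at 0.05. The fit was run on simulated counts with independent noise and no library axis, which checks the code only and not its error rate on these libraries. CPM divide by the TMM-scaled library size in units of 1e+06, and log2 CPM used a prior count of 2. Members below the filter got exact permutation tests with 56 splits. DESeq2 1.42.0 and the other alternatives are given at the end. Every column of values was used.

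The members and lists were chosen with earlier results of these data known. Named are the members, the 5 ORFs most like CCC1 and the 3 most like FTR1, and in each list the genes past the threshold or otherwise the 2 with the highest mean CPM.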

Additional observations from a re-analysis of the deposited data

Results flagged for a closer look

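The CCC1 level of wild-type replicate 3, 49.0 CPM, stood apart from the other wild-type libraries, at 156 to 196 CPM. Its gap to the nearest of them was 0.727 of the range of the group, which is a description with no test, since CCC1 was selected on its level. The library also had the highest score on the library axis, 38.7, and the lowest CTR1 level, 32.7 CPM. A bearing of the axis on these levels was not tested.

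All 3 yal031c libraries lay above the wild-type mean of CCC1, 155.6 CPM, and all libraries of yal067c, of yal022c and of yal008w lay below it. Replicate 1 of yal067c, at 154 CPM, lay below it by less than the 11.9 CPM that 1 count was worth there. That mean includes wild-type replicate 3, at 49.0 CPM. The difference between the strains was not tested, because CCC1 was selected on it.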

How the results depend on the processing

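In the 4 comparisons tested, FTR1 and CTR1 gave 0 calls under each of 26 alternatives, and FET3 gave 0 under 25, since it did not pass the filter at a minimum count of 20. Where FTR1 and FET3 changed sign in those comparisons (22 values), they lay between −0.28 and 0.21. The counts of called ORFs over the whole table moved much more, and the cause was not tested. Against wild-type, yal067c had 4 calls, but 7 by DESeq2, 8 without the count filter and 8 with all 18 libraries. The 6 calls of yal022c became 2 with only wild-type replicates 1 to 3. The 9 of yal008w became 48 by DESeq2, 4 at a minimum count of 20 and 23 with 18 libraries. The 11 of the mean of the 3 strains became 18 without the filter and 5 at a minimum count of 20. The 8 of yal031c became 3 at that minimum and 2 with wild-type replicates 1 to 3. Leaving out 1 library at a time gave 2 to 114 calls in yal067c, 1 to 7 in yal022c, 2 to 175 in yal008w (175 without wild-type replicate 3), 9 to 216 in the mean of the strains and 4 to 11 in yal031c. Against the other strains, yal031c had 0 to 389. The values 114, 216 and 389 came without yal067c replicate 1. The fold change of FTR1 in yal067c was 0.038 (log2) at a minimum count of 20, and that of FET3 in yal008w was −0.064 with 18 libraries and −0.12 with wild-type replicates 1 to 3. With 1 library left out, FET3 ran from −0.24 to 0.21 in yal067c, −0.85 to 0.18 in yal022c, −0.20 to 0.22 in yal008w and −0.27 to 0.068 in the mean of the strains, and FTR1 from −0.17 to 0.15 in yal067c and −0.18 to 0.034 in yal022c. The exact tests under 0.05 numbered 0 to 1 in each of 16 alternatives. With counts corrected for the ceiling, which raises library totals, the CCC1 mean in yal031c was 205 CPM in place of 246. Depth limits FTH1, FRE1, SMF3, SMF1 and FET4 most.

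Same-numbered libraries of different groups correlated from −0.48 to 0.52 in their deviations over 30 pairs, with 20 of the pairs over 0.1. Of 15 libraries, 7 correlated best with their own number. An effect shared by same-numbered libraries was not tested, and the main fit did not pair them. With a replicate block, yal022c had 2 calls, yal031c against the other strains had 163, and FET3 in yal008w was −0.28.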
